A study of Mus musculus with 2 samples.

Results

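Eomes-positive natural killer (NK) cells are circulating cytotoxic lymphocytes that pass through the liver. Here they were chosen by the measured transcripts they held, counted as UMIs (each a barcoded copy of 1 RNA molecule), in droplet single-cell RNA sequencing of liver non-parenchymal cells. A barcode was a member when it held at least 200 genes, at most 20% mitochondrial UMIs, at least 2 UMIs over the receptor genes Ncr1, Klrb1c and Klre1, and at least 1 UMI over Eomes, Klra8 and Klra4. It also had to have 0 UMIs over Cd3d, Cd3e and Cd3g, at most 1 over Cd79a, Cd79b and Ms4a1, and at most 5 over C1qa, C1qb and C1qc. The rule found 104 cells among 24655 barcodes, of which 24093 passed the limits on genes and mitochondrial UMIs. The 15 genes of the rule are described below where needed but support nothing.

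The mice were Mfap2+/+ (wild type) or Mfap2-/-, which lack the microfibril-associated glycoprotein encoded by Mfap2, and all received intraperitoneal carbon tetrachloride (CCl4), a hepatotoxin that scars the liver, for 8 weeks. No library came from mice without CCl4. Each genotype is 1 library, and the number, age and sex of the animals behind it are not stated in the labels. Genotype, animal and library therefore cannot be told apart, no test between genotypes was possible, and every interval below is at 95% and covers counting error only.

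NK cells kill infected or transformed cells by releasing perforin and granzymes, and they weigh signals from activating and inhibitory receptors before doing so. In the mouse liver they share the receptors NKp46 (Ncr1) and NK1.1 (Klrb1c) with type 1 innate lymphoid cells (ILC1), which reside in the tissue. Eomes and the Ly49 receptors encoded by the Klra genes mark the NK cells, whereas CXCR6, CD49a (Itga1), CD200R1 and the IL-7 receptor mark the ILC1. During maturation NK cells lose CD27 and gain CD11b (Itgam) and KLRG1.

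The Mfap2+/+ library held 11783 barcodes and 82499307 UMIs and the Mfap2-/- library 12872 and 118226367, with medians of 4933 and 6587 UMIs per kept barcode. Mfap2 itself had 257 UMIs over the kept Mfap2+/+ barcodes and 4 over the kept Mfap2-/- barcodes, and 0 in the NK cells of both. The libraries shared 40 barcodes, 1 of them an NK barcode of the Mfap2+/+ library and 0 an NK barcode of the other. The NK cells differed little in depth, with medians of 6910 and 7141 UMIs per cell and sums of 509521 and 272234 UMIs. No doublet caller was used beyond the exclusions in the rule, and Scrublet is given as an alternative.

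The label was checked with Prf1, the perforin gene, which took no part in the rule. It had a UMI in 42 of 68 Mfap2+/+ NK cells (61.8%, 49.2 to 73.3) and in 26 of 36 Mfap2-/- NK cells (72.2%, 54.8 to 85.8). In B cells, which lack perforin, the shares were 1.51% and 1.67% at median depths of 3534 and 4844 UMIs. Thinned to 2000 UMIs per cell, the NK shares were 42.7% and 51.4% and the B cell shares 0.476% and 0.386%. The ILC1 genes Cxcr6, Cd200r1, Itga1 and Il7r had 4, 3, 13 and 25 UMIs over all Mfap2+/+ NK cells and 7, 6, 7 and 13 over all Mfap2-/- NK cells. These counts are not scaled, and the Mfap2-/- sum was the smaller. In that library 5 Cxcr6, 5 Cd200r1 and 12 Il7r UMIs lay in members with Eomes but no Klra8 or Klra4 UMIs, each gene in 2 cells. Il7r, the most frequent of the ILC1 genes, stood at 49.1 and 47.8 CPM, against 233 and 272 in ILC1-like cells. Those cells were themselves chosen by a UMI of these genes, so this contrast describes the gates and does not check the label. In ILC1-like cells, defined below, a Prf1 UMI was found in 41.8% and 34.95% of cells (17.2% and 12.5% thinned), so Prf1 set NK cells apart from B cells more sharply than from these.

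RNA of other cell types was present, and the neutrophil markers summed to more than Prf1 itself. All 5 hepatocyte markers had UMIs in the NK cells, with a summed level of 58.9 CPM (counts per 1000000 UMIs) in the Mfap2+/+ and 235 in the Mfap2-/- library. All 4 erythroid markers summed to 575 and 114 CPM, all 4 neutrophil markers to 1419 and 867, and 5 macrophage markers outside the rule to 151 and 80.8. In the B cells of the same libraries these sums were 89.4 and 266 for hepatocyte, 973 and 367 for erythroid, 2193 and 1562 for neutrophil, and 207 and 119 for macrophage markers. The 3 B cell markers outside the rule summed to 400.4 and 525 CPM in NK cells, against 8597 and 5856 in B cells, and the 5 endothelial markers to 206 and 294 CPM. The 8 T cell markers summed to 410 and 301 CPM in NK cells, against 2272 and 1769 in CD8 T cells, with Cd8a and Cd8b1 at 0 in the Mfap2-/- NK cells. Of 4 plasmacytoid dendritic cell markers Siglech and Ccr9 were at 0 in both, and the list summed to 76.5 and 84.5 CPM. The part of this RNA in the results below was not tested.

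Gzma and Prf1 ranked first among genes higher in NK cells than in all other barcodes by the smaller of the libraries' ratios, with log2 ratios of 5.59 and 4.70 in the Mfap2+/+ and 6.2 and 5.84 in the Mfap2-/- library. In the Mfap2+/+ library alone Klra7 stood higher, at 5.63. The 250 bases before the RefSeq start of Gzma and Prf1 are shown, from promoter entries on GRCm38.p6, which held 4 of the 10 highest genes by that rule. Gzma lies on the minus strand at chr13:113093825-113100981 and its upstream bases at chr13:113100982-113101231. Prf1 lies on the plus strand at chr10:61297833-61304680 and its upstream bases at chr10:61297586-61297835, so its last 3 bases lie inside the GENCODE gene. Capitals mark matches to the Runx core TGTGGT on either strand, which holds in 14.1% of the 32851 promoters of this length. The T-box core GGTGTG, the kind of site Eomes binds, is in 16.3% of them and was not found in these windows. Nor was the full ETS motif CCGGAAGT (2.88%), and shorter ETS matches were not searched. A match is a description of letters and not of binding.
Gzma: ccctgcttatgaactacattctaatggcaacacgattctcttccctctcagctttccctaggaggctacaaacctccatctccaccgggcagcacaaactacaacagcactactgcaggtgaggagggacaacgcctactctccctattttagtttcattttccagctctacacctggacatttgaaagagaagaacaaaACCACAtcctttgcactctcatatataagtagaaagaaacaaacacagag
Prf1: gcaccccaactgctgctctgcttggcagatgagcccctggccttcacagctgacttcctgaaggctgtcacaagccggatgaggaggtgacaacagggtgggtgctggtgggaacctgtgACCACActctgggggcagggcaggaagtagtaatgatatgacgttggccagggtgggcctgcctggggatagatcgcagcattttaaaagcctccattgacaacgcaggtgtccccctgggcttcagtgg

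The NK cells made up a smaller share of the Mfap2-/- library. They were 68 of 11370 kept Mfap2+/+ barcodes (0.598%, exact Clopper-Pearson interval 0.465 to 0.758) and 36 of 12723 kept Mfap2-/- barcodes (0.283%, 0.198 to 0.392), a log2 ratio of -1.08 (-1.70 to -0.48) or 2.11-fold. Before the exclusions of the rule, 172 Mfap2+/+ and 159 Mfap2-/- barcodes met both positive criteria, so the libraries were closer there. The CD3 limit left 104 and 68 of these. The C1q limit, applied last, reduced 99 and 65 to the 68 and 36 members. ILC1-like cells, which met the same receptor and exclusion criteria but had 0 UMIs over Eomes, Klra8 and Klra4 and at least 1 over Cxcr6, Itga1, Cd200r1 and Il7r, were 349 (3.07%) and 186 (1.46%), a log2 ratio of -1.07 (-1.33 to -0.81). The NK share of all barcodes in this receptor gate was 14.1% (68 of 482, 11.1 to 17.5) and 14.9% (36 of 241, 10.7 to 20.1). The NK and ILC1-like shares were thus lower by similar amounts. Barcodes of the gate with neither gene set were 65 (0.572%) and 19 (0.149%), a log2 ratio of -1.94 (-2.76 to -1.18), so this remainder of the gate was lower by more.

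Other lymphocytes showed different ratios. CD8 T cells were 160 (1.41%) and 170 (1.34%), a log2 ratio of -0.07 (-0.39 to 0.25), and B cells 861 (7.57%) and 1316 (10.3%), a log2 ratio of 0.45 (0.32 to 0.58). The lower NK share was also seen at matched depth. With every cell thinned to 2000 UMIs before gating, it was 0.641% (58 of 9043) in the Mfap2+/+ and 0.254% (28 of 11034) in the Mfap2-/- library. ILC1-like cells were then 2.33% and 0.906%, and CD8 T cells 1.38% and 1.19%. B cells were then 7.03% (6.51 to 7.58) and 7.33% (6.85 to 7.83). These B cell intervals overlap, so the higher B cell share was not seen beyond counting error at matched depth. Whether cells were lost during isolation was not measured.

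**Figure D1:**
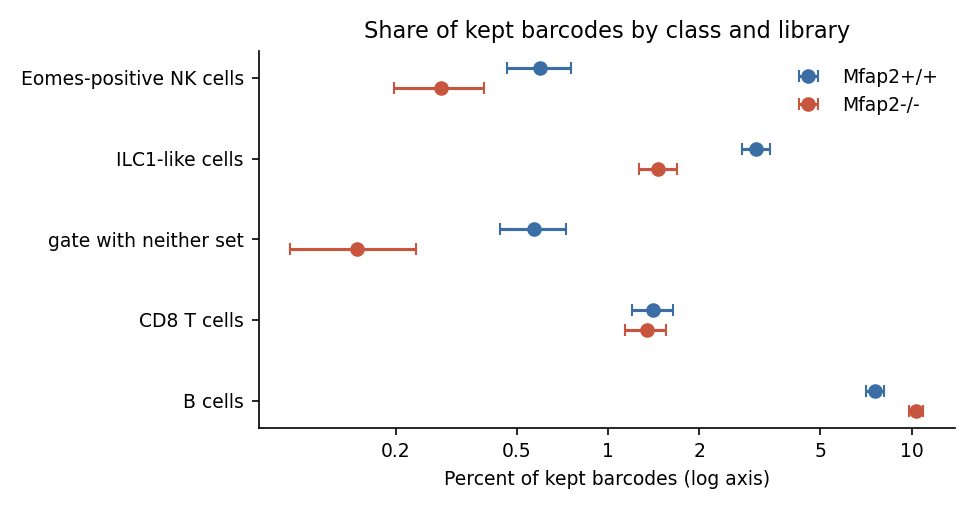
Share of kept barcodes (percent, log axis) in each class of lymphocyte, for the Mfap2+/+ and Mfap2-/- library, with exact 95% intervals of counting error. NK cells (0.598% and 0.283%) and ILC1-like cells (3.07% and 1.46%) lie lower in the Mfap2-/- library, CD8 T cells nearly coincide, and B cells lie higher. The shares are not matched for depth.

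The edges of the rule were sharp on some criteria and not on others. Of the members, 7 Mfap2+/+ and 1 Mfap2-/- cells had exactly 2 receptor UMIs, and 6 and 5 barcodes failed by having 1. Exactly 1 UMI over Eomes, Klra8 and Klra4 admitted 12 and 9 members, while 414 and 205 barcodes failed only by having 0. At the CD3 limit all members had 0 UMIs and 11 and 8 barcodes failed with 1. At the C1q limit 12 and 8 members sat at 5 UMIs and 3 and 3 barcodes failed with 6.

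Members entered by different genes. In the Mfap2+/+ library 13 cells had Eomes UMIs alone, 24 had Klra8 or Klra4 alone and 31 had both, and in the Mfap2-/- library these numbers were 14, 10 and 12. Gzma was lower in the Eomes-alone cells of both libraries, at 1354 and 2417 CPM, than in cells with both, at 3851 and 4346. Prf1 showed the same order, with 66.2 and 194 CPM in Eomes-alone cells and 387 and 443 in cells with both. Cells with Klra8 or Klra4 alone held 262 and 544 CPM. ILC1-like cells held 94.7 and 71.5 CPM of Prf1. The Mfap2+/+ Eomes-alone cells (30.3 to 126) were thus not set apart from ILC1-like cells by Prf1, while the Mfap2-/- ones (124 to 289) lay above them. The entry groups are drawn by genes of the rule, so they are a description and support no difference between the libraries.

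The cytotoxic genes were abundant in NK cells of both libraries. Gzma, a tryptase of the lytic granules, stood at 3183 CPM (3030 to 3342) in Mfap2+/+ and 3486 CPM (3268 to 3715) in Mfap2-/- NK cells, a log2 ratio of 0.13 (0.01 to 0.25). Single cells spread widely. In the Mfap2+/+ library the lowest cell had 0, the median 13.3 and the highest 220 Gzma UMIs per 10000, with 19 of 68 cells at 0. In the Mfap2-/- library these values were 0, 38.5 and 105, with 4 of 36 cells at 0. The summed levels were close while the median Mfap2-/- cell held more, and the 5 richest cells held 33.1% and 31.6% of the Gzma UMIs.

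Prf1 followed the same pattern at a lower level. It stood at 269 CPM (226 to 318) and 349 CPM (282 to 427), a log2 ratio of 0.38 (-0.02 to 0.76), with per-cell medians of 1.32 and 2.93 UMIs per 10000. Gzmb, the granzyme that activates caspases, stood at 548 CPM (485 to 616) and 371 CPM (302 to 451), a log2 ratio of -0.55 (-0.90 to -0.23). The Gzmb log2 ratio was -1.12 in ILC1-like cells, -1.94 in CD8 T cells and -1.24 in B cells. In NK cells the Gzmb ratio was within the 1.5-fold limit used below, and single cells did not follow the sum. A Gzmb UMI was found in 42 of 68 and 29 of 36 cells (48.5% and 60.0% thinned), with medians of 2.87 and 3.0 UMIs per 10000. Gzmc had 36 UMIs in 4 Mfap2+/+ cells and 3 UMIs in 2 Mfap2-/- cells.

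Of 17 cytotoxic and death-ligand genes, 12 had at least 50 UMIs over both NK sums, the minimum for a gene to be counted. A gene is counted as higher or lower when its summed CPM differed at least 1.5-fold between the libraries (0.585 in log2), and of all 2710 such genes 15.1% were higher and 7.71% lower in the Mfap2-/- NK cells, with a median log2 ratio of 0.09. Of these calls 408 were higher and 209 lower. Scaled by the median of ratios they were 330 and 279, and scaled without mitochondrial, ribosomal, haemoglobin and Malat1 UMIs 309 and 302, with all-gene medians moved by -0.07 and -0.10. The excess of higher calls therefore depends on the scaling. The counts of each list between the libraries below stand against these shares of 15.1% and 7.71%.

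In the cytotoxic list 1 gene was higher and 1 lower, and the median was 0.00. The higher gene was Serpinb9, an inhibitor that shields the cell from its own granzyme B, at 448 CPM (391 to 510) and 896 CPM (787 to 1016), a log2 ratio of 1.0 (0.74 to 1.27). It was past 1.5-fold in all 15 alternative settings tried for it. Here and below, settings that only move the minimum number of UMIs leave a gene's own ratio unchanged, so they could not fail. The Serpinb9 log2 ratio was 0.33 in ILC1-like cells, -0.77 in CD8 T cells and -0.41 in B cells. The lower gene was Lamp1, a membrane protein of lysosomes and granules, at 134 and 80.8 CPM. Nkg7, a granule protein, stood at 1268 and 970 CPM (-0.38), and Fasl, the death ligand, at 62.8 and 88.2 CPM (0.50), both within the 1.5-fold limits.

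**Figure D2:**
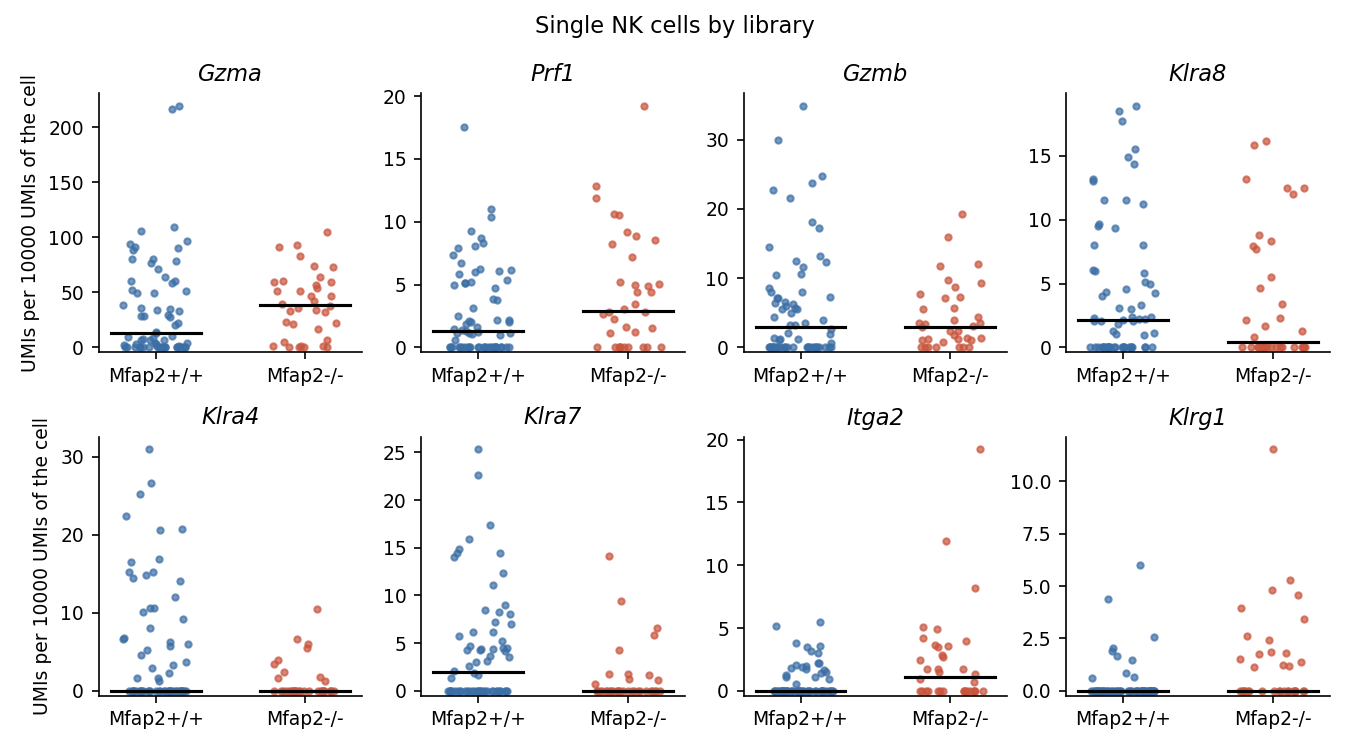
UMIs per 10000 UMIs of each NK cell for 8 genes, 1 point per cell, 68 Mfap2+/+ and 36 Mfap2-/- cells, with the median as a line. The median Mfap2-/- cell lies higher for Gzma (38.5 against 13.3) and Prf1 (2.93 against 1.32), while 25 of 36 Mfap2-/- and 31 of 68 Mfap2+/+ cells are at 0 for Klra7.

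The Ly49 receptors bind class I major histocompatibility molecules or viral ligands, and each NK cell expresses a varied subset of them. Their genes lie together on the minus strand of chromosome 6, for example Klra8 at chr6:130115226-130129898, Klra4 at chr6:130043731-130067271 and Klra7 at chr6:130218605-130233322 (GENCODE M21, GRCm38). They are close paralogs, so counts can be split or lost between them. In the last 500 bases of their transcripts, 0% of the 90-base windows of Klra1, Klra4, Klra5, Klra6 and Klra8 occur in another gene, 5.15% of those of Klra3, 6.57% of Klra7, 12.4% of Klra9 and 15.6% of Klra10.

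Among the Ly49 genes outside the rule, Klra7 and Klra1 were lower in the Mfap2-/- library. Klra7, an inhibitory receptor (Ly49G) outside the rule, stood at 408 CPM (355 to 468) in Mfap2+/+ and 151 CPM (108 to 204) in Mfap2-/- NK cells, a log2 ratio of -1.41 (-1.96 to -0.95). It had a UMI in 37 of 68 and 11 of 36 cells. In the Mfap2-/- library 5 cells held 85.4% of its UMIs, against 28.9% in the Mfap2+/+ library. Klra1, which encodes the inhibitory Ly49A, stood at 108 and 47.8 CPM (-1.10, -2.17 to -0.29), in 15 and 4 cells. Klra3, the Ly49C gene, stood at 96.2 and 143 CPM (0.58, -0.07 to 1.21) and Klra9, the Ly49I gene, at 112 and 99.2 CPM (-0.15). Of the 4 countable genes outside the rule 0 were higher and 2 lower, with a median of -0.62.

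Klra7 is also described by entry group and among cycling cells. It stood at 206 and 56.6 CPM in Eomes-alone cells, 465 and 233 in cells with Klra8 or Klra4 alone and 491 and 227 in cells with both. The Mfap2-/- values rest on 7, 12 and 22 UMIs in 2, 4 and 5 cells. With Klra8 or Klra4 alone the intervals overlap (356 to 596 and 121 to 408). The entry groups are drawn by genes of the rule, so they support no difference between the libraries. In the 18 and 7 cycling cells described below Klra7 stood at 301 and 289 CPM, and in the others at 466 and 103 CPM. Klra7 was past 1.5-fold lower in all 15 alternative settings. Among the genes of the rule, the activating receptor gene Klra8 (Ly49H) stood at 336 and 305 CPM and the activating Klra4 (Ly49D) at 442 and 118 CPM. Their spread is described only, since both chose the members.

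The number of Ly49 genes per cell was counted over the 7 genes outside the rule. The median was 1 gene per cell in both libraries at the deposited depth, and 1 in Mfap2+/+ and 0 in Mfap2-/- cells when thinned. None of the 7 had a UMI in 12 of 68 Mfap2+/+ cells (17.6%, 9.47 to 28.8) and in 10 of 36 Mfap2-/- cells (27.8%, 14.2 to 45.2). Thinned to 2000 UMIs, these were 20 of 68 (29.4%, 19.0 to 41.7) and 20 of 35 (57.1%, 39.4 to 73.7). The intervals overlap at both depths, when thinned only from 39.4 to 41.7.

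The C-type lectin receptors beside the Ly49 family were level between the libraries. Of 6 countable NKG2 and NKR-P1 genes outside the rule, 0 were higher and 0 lower, with a median of 0.03. Klrk1, the activating receptor NKG2D, stood at 459 CPM (402 to 522) and 558 CPM (473 to 655), a log2 ratio of 0.29. Klrd1 (CD94), which pairs with the NKG2 chains, stood at 554 and 445 CPM (-0.31), and the inhibitory Klrc1 (NKG2A) at 171 and 184 CPM (0.12).

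Other surface receptors showed a wider spread. Of 8 countable genes 4 were higher (Cd226, Cd244a, Lilrb4a and Cd2) and 1 lower (Cd7), with a median of 0.63. Cd226, an activating receptor for nectin-family ligands (DNAM-1), stood at 58.9 CPM (39.7 to 84.1) and 162 CPM (117 to 217), but 5 cells held 77.3% of its Mfap2-/- UMIs and 11 of 36 cells had any. Cd7, a surface glycoprotein of T and NK cells, stood at 422 CPM (367 to 482) and 140 CPM (98.8 to 192), a log2 ratio of -1.57 (-2.13 to -1.09). It was past 1.5-fold lower in all 15 alternative settings, and its log2 ratio was -0.63 in ILC1-like and -0.67 in CD8 T cells.

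Among 12 countable signalling adaptors and kinases 2 were higher and 0 lower, with a median of 0.10. Those higher were Syk, at 92.2 and 143 CPM (0.64, -0.02 to 1.28), and the Src-family kinase Fyn, at 522 and 797 CPM (0.61, 0.35 to 0.87). The adaptors DAP12 (Tyrobp, 1437 and 1124 CPM, -0.35) and Fc receptor gamma (Fcer1g, 1144 and 1109 CPM, -0.04) stayed inside the limits. Both adaptors had UMIs in at least 35 of 36 Mfap2-/- cells and in all 68 Mfap2+/+ cells.

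The secreted factors had ratios at or below 0. Of 8 countable cytokines and chemokines 0 were higher and 2 lower, with a median of -0.39. Ifng, the defining NK cytokine, stood at 856 CPM (777 to 940) and 819 CPM (715 to 934), a log2 ratio of -0.06 (-0.30 to 0.17), in 58 of 68 and 32 of 36 cells. Ccl5 stood at 9362 and 7887 CPM (-0.25) and Ccl4 at 4657 and 3111 CPM (-0.58), both chemokines that draw leukocytes to inflamed tissue. The lower genes were Tnf, at 116 and 66.1 CPM (-0.75, -1.66 to -0.03), and Ltb, at 98.1 and 62.5 CPM (-0.60, -1.54 to 0.17). Ccl3 stood at 828 and 823 CPM (-0.01) in NK cells while its log2 ratio in ILC1-like cells was -1.17, and the difference between those ratios was not tested.

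Receptors for the cytokines that drive NK cells had ratios mostly above 0. Of 15 countable genes 3 were higher and 0 lower, with a median of 0.42. The count of higher genes was near the share of 15.1% over all 2710 genes. Il12rb2, the signalling chain of the interleukin-12 receptor, stood at 809 CPM (732 to 891) and 1407 CPM (1270 to 1555), a log2 ratio of 0.80 (0.59 to 1.0). The ratio was 0.14 in ILC1-like cells. Il2rg, the common gamma chain, stood at 149 and 228 CPM (0.61, 0.10 to 1.11), and Ifngr1, a chain of the interferon-gamma receptor, at 620 and 948 CPM (0.61, 0.37 to 0.85). Il2rb, the shared interleukin-2 and interleukin-15 receptor chain, at 648 and 863 CPM (0.42), and Stat4, which relays interleukin-12, at 1511 and 1605 CPM (0.09), were within the limits. The call on Il2rg held in 7 of 13 alternative settings and that on Ifngr1 in 8 of 15, whereas Il12rb2 held in 13 of 15.

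The transcription factors of NK development were mostly within the limits. Of 15 countable genes outside the rule 3 were higher (Nfil3, Ikzf2 and Rora) and 1 lower (Tox), with a median of 0.35. Tbx21 (T-bet) stood at 251 CPM (210 to 299) and 371 CPM (302 to 451), a log2 ratio of 0.57. Irf8 stood at 738 CPM (665 to 816) and 984 CPM (870 to 1110), a log2 ratio of 0.42. Id2, which restrains E proteins in innate lymphocytes, stood at 554 and 448 CPM (-0.30). Nfil3, needed early in the NK lineage, stood at 76.5 and 129 CPM (0.75, 0.05 to 1.44).

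Rora, a nuclear receptor more typical of ILC, had the largest ratio of the list. It stood at 114 CPM (86.4 to 147) and 382 CPM (312 to 463), a log2 ratio of 1.74 (1.27 to 2.24), with 70.2% of the Mfap2-/- UMIs in 5 cells. It was past 1.5-fold in all 13 alternative settings, one of which drops the 5 richest cells of each library. The call on Ikzf2 turned direction without its 5 richest cells (-0.04) and among members with at least 2 UMIs over Eomes, Klra8 and Klra4 (-1.01). Tox stood at 514 and 338 CPM (-0.60, -0.96 to -0.26), a call that held in 9 of 15 settings.

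**Figure D3:**
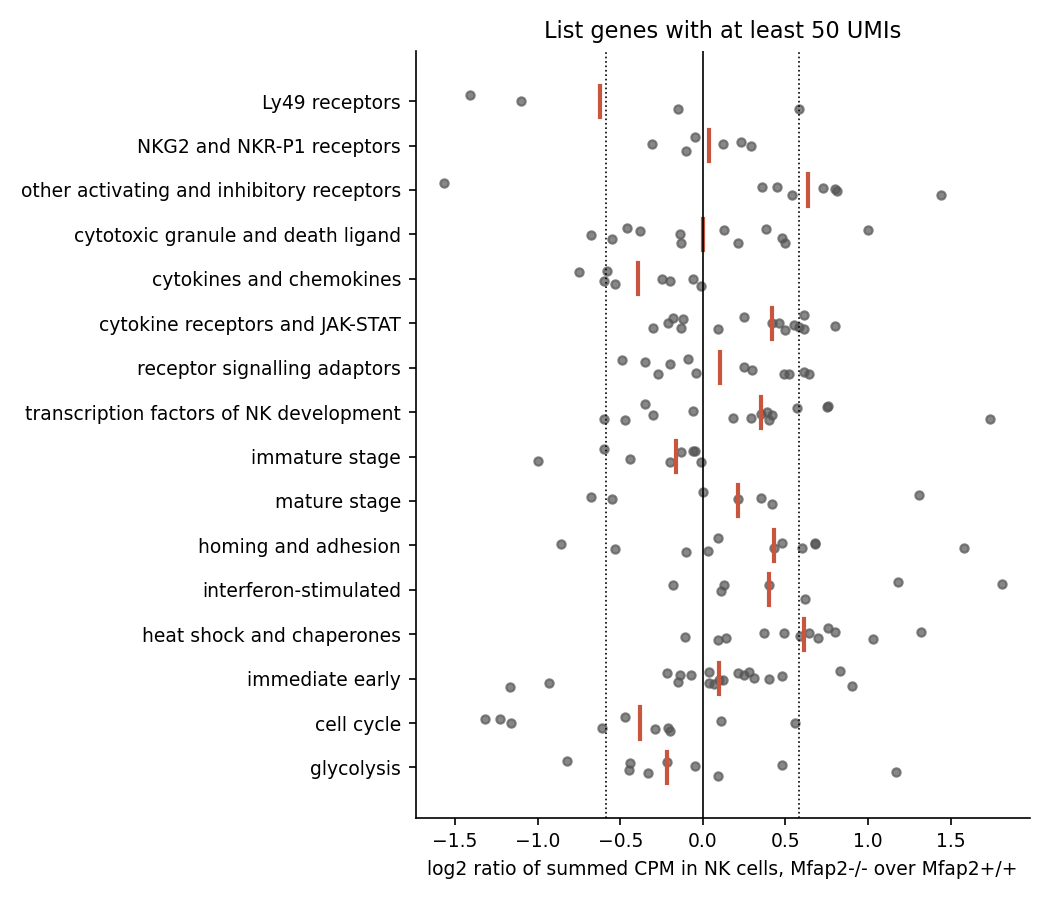
log2 ratio of summed NK CPM, Mfap2-/- over Mfap2+/+, for each list gene with at least 50 UMIs (points), with the list median (red line) and the 1.5-fold limits (dotted). Heat shock genes and other receptors have medians of 0.61 and 0.63, Ly49 receptors of -0.62, and most lists spread around 0.

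Genes of the early and late stages of maturation gave few calls. Of 8 countable genes of the immature stage 0 were higher and 2 lower (Ctla2a and Ltb), with a median of -0.16, and of 7 of the mature stage 1 was higher (Ly6c2) and 1 lower (S100a4), with a median of 0.21. Several defining genes were too sparse to be counted. Klrg1, an inhibitory receptor of mature NK cells, had 17 UMIs in 10 of 68 cells (14.7%, 7.28 to 25.4) and 25 UMIs in 16 of 36 cells (44.4%, 27.9 to 61.9). Thinned, 3 of 68 and 9 of 35 cells had a Klrg1 UMI. Cd27 had 25 UMIs in 18 of 68 cells (26.5%, 16.5 to 38.6) and 7 UMIs in 6 of 36 cells (16.7%, 6.37 to 32.8).

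Itgam had a UMI in 17 of 68 (15.3% to 37.0%) and 16 of 36 cells (44.4%, 27.9 to 61.9), but in 10 of 68 (14.7%) and 6 of 35 (17.1%) after thinning, and its levels of 64.8 and 73.5 CPM differed within counting error. Ctla2a, a cathepsin inhibitor, stood at 542 CPM (480 to 610) and 268 CPM (210 to 337), a log2 ratio of -1.0 (-1.41 to -0.64), and was lower past 1.5-fold in all 15 alternative settings. Ly6c2 stood at 53.0 and 132 CPM (1.31, 0.56 to 2.10) in 13 and 14 cells. S100a4, a calcium-binding protein of the mature list, ran the other way at 175 and 107 CPM (-0.68).

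The cells were also split by the genes Cd27 and Itgam themselves. In the Mfap2+/+ library 13 cells had a Cd27 UMI alone, 12 an Itgam UMI alone, 5 both and 38 neither, and in the Mfap2-/- library 4, 14, 2 and 16. The Itgam-alone cells were shallower, with medians of 5405 and 5827 UMIs against 7527 and 8389. Gzma stood at 1651 CPM in Cd27-alone and 7351 CPM in Itgam-alone cells of the Mfap2+/+ library, and at 1286 and 5162 CPM in the Mfap2-/- library. Prf1 stood at 154 and 510 CPM, and at 112 and 554 CPM. Per UMI, the Itgam-alone cells thus held more of both transcripts than the Cd27-alone cells. Cells with neither UMI stood between them, at 2668 and 3256 CPM of Gzma and 231 and 305 CPM of Prf1. Cells with both stood at 3513 CPM of Gzma in the Mfap2+/+ library and, from 2 cells, at 1104 in the Mfap2-/- library.

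Some of the other genes examined followed that split in both libraries, and others did not. Irf8 stood at 408 and 1572 CPM in Cd27-alone and Itgam-alone Mfap2+/+ cells and at 391 and 1396 CPM in the Mfap2-/- cells. Ccl5 stood at 6114 and 19873 CPM, and at 3746 and 13115 CPM. Emb, which encodes the adhesion glycoprotein embigin, ran the other way, at 1188 and 331 CPM, and at 1230 and 77.5 CPM. Ifng was lower in the Itgam-alone cells of the Mfap2+/+ library (707.5 and 483 CPM) but higher in those of the Mfap2-/- library (391 and 1274 CPM). S100a4 was level, at 72.6 and 69.0 CPM, and at 55.9 and 55.4 CPM. The Cd27-alone values of the Mfap2-/- library rest on 4 cells, and these are cells of 1 library each, so no test was made.

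**Figure D4:**
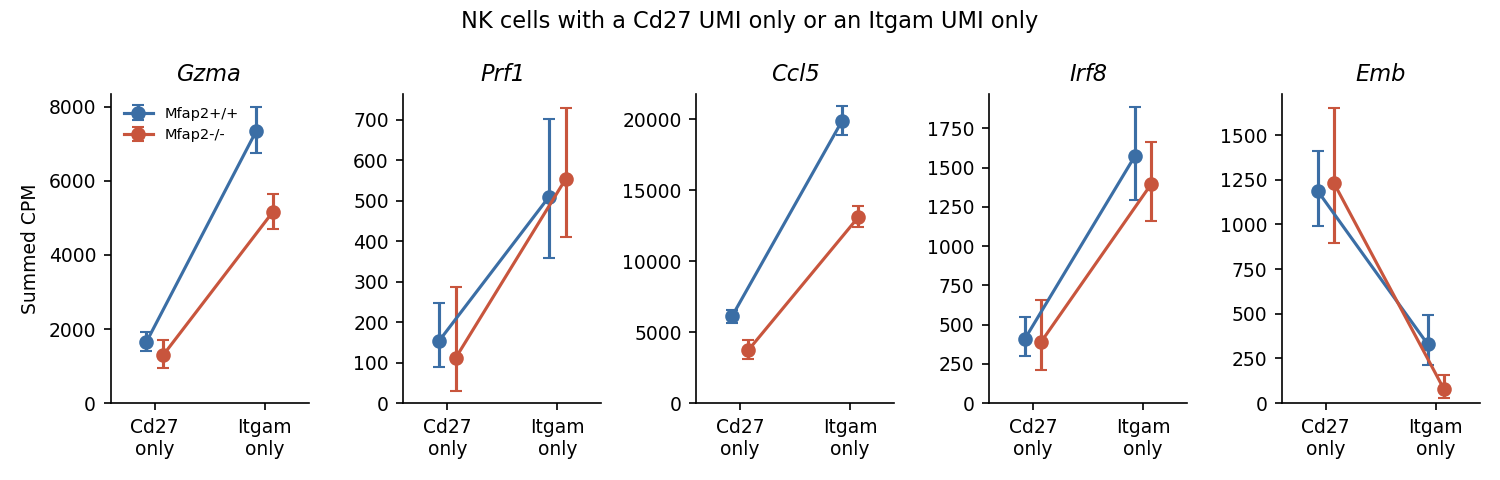
Summed CPM of 5 genes in NK cells with a Cd27 UMI alone or an Itgam UMI alone, by library, with 95% Poisson intervals of counting error. Gzma, Prf1, Ccl5 and Irf8 are higher and Emb lower on the Itgam side in both libraries.

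Genes of homing and adhesion were counted next. Of 11 countable genes 4 were higher, among them Itga2 and Itga4, and 1 lower (Cxcr4), with a median of 0.43. Itga2, the CD49b integrin chain that is used to tell NK cells from ILC1, stood at 66.7 CPM (46.2 to 93.3) and 202 CPM (152 to 263), a log2 ratio of 1.58 (0.96 to 2.26). It had a UMI in 22 of 68 and 20 of 36 cells, and its log2 ratio was 0.12 in ILC1-like cells. Thinned, the shares were 17.6% (9.47 to 28.8) and 22.9% (10.4 to 40.1), which overlap.

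Itga4, the alpha chain of VLA-4, stood at 667 CPM (598 to 742) and 1065 CPM (946 to 1195), a log2 ratio of 0.68 (0.44 to 0.91). Cxcr4, which holds NK cells in the bone marrow, stood at 279 CPM (235 to 329) and 151 CPM (108 to 204), a log2 ratio of -0.86 (-1.43 to -0.38), and was lower past 1.5-fold in all 14 alternative settings. Cd69, an activation and retention marker, stood at 661 and 456 CPM (-0.53).

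The rule separates NK from ILC1-like cells by Eomes, Klra8 and Klra4, so their comparison within a library describes the gate and carries no test. Of 4809 genes with at least 50 UMIs over both classes in each library, 4.87% were at least 1.5-fold higher and 5.36% at least 1.5-fold lower in NK cells of both libraries. Gzma stood at 209 and 108 CPM in ILC1-like cells, so the NK cells held more by log2 ratios of 3.92 (Mfap2+/+) and 5.0 (Mfap2-/-). The Prf1 log2 ratios were 1.51 and 2.29. Gzmc ran the other way, at 688 and 427 CPM in ILC1-like cells (-3.24 and -4.86), and Gzmb was close (-0.30 and 0.27). The granzymes thus divided between the classes in both libraries.

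By role, 2 of 14 cytotoxic genes were higher in NK cells of both libraries (Prf1 and Gzma) and 2 lower (Gzmc and Tnfsf10, the gene of TRAIL). Of 15 adaptors 5 were higher (Tyrobp, Cd247, Sh2d2a, Fyn and Plcg2) and 1 lower. Cd247, the CD3 zeta chain that also serves NK receptors, stood at 275 and 393 CPM against 67.2 and 52.5 in ILC1-like cells. The adaptor gene Sh2d1a (SAP) stood at 100.1 and 118 CPM against 6.34 and 8.53.

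Transcription factors divided evenly. Of 17 genes 4 were higher in NK cells (Prdm1, Zeb2, Klf2 and Irf8) and 4 lower (Ikzf2, Tox, Gata3 and Rora). Irf8 stood at 217 and 208 CPM in ILC1-like cells, giving log2 ratios of 1.77 and 2.24, and Ikzf2 (Helios) at 886 and 958 CPM, giving -2.86 and -2.22. Of 11 homing genes 4 were higher in NK cells, among them Itga2, Itga4 and Itgb1, and 0 lower. Itga2 had log2 ratios of 2.13 and 3.59. Of 8 cytokine genes 0 were higher and 2 lower, Ltb and Xcl1, the latter with log2 ratios of -1.52 and -1.12.

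**Figure D5:**
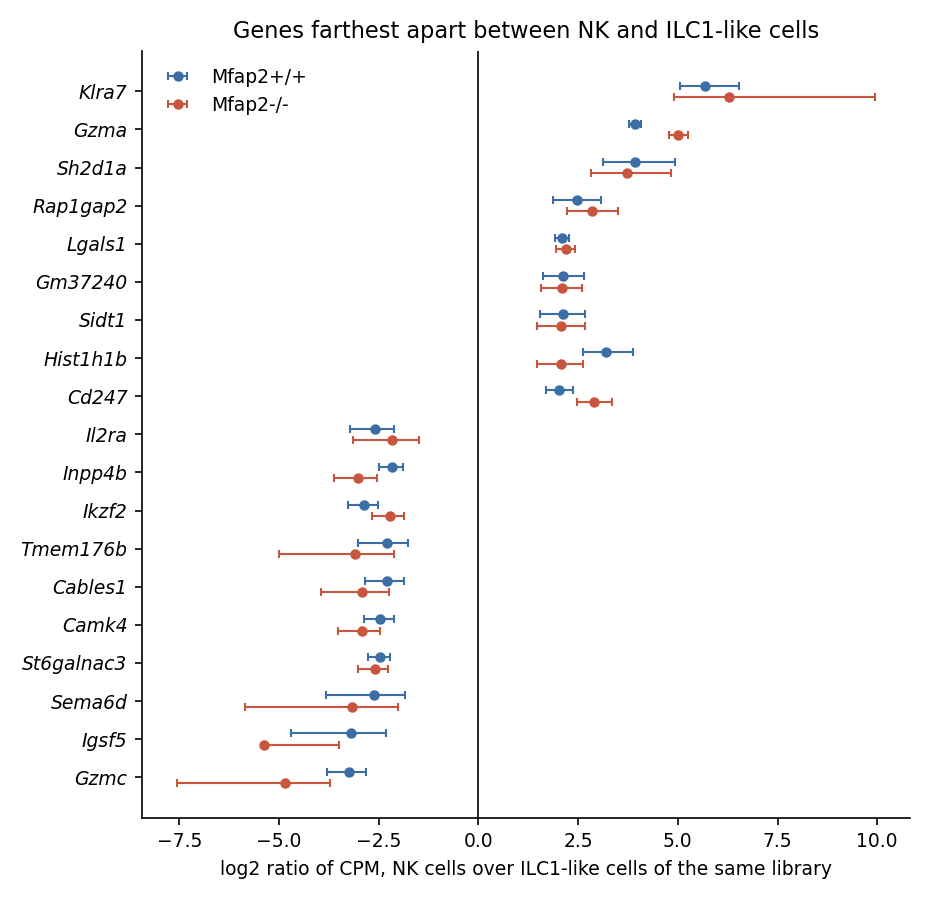
log2 ratio of CPM in NK over ILC1-like cells of the same library for 9 of the 10 highest and the 10 lowest genes, with exact 95% counting intervals, outside the genes of the rule. The choice of genes requires both libraries to lie on the same side of 0. Igsf5 had 0 UMIs in the Mfap2-/- NK cells, so that point depends on the added count.

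Proliferation genes were higher in NK than in ILC1-like cells. Of 9 countable cell cycle genes 7 were higher in NK cells of both libraries and 0 lower, among them Mki67 (log2 ratios of 1.86 and 1.76) and Top2a (2.36 and 1.72). At least 2 UMIs over Mki67, Top2a, Birc5, Cdk1, Ccnb2 and Cdca8 were found in 18 of 68 Mfap2+/+ NK cells (26.5%, 16.5 to 38.6) and 7 of 36 Mfap2-/- NK cells (19.4%, 8.19 to 36.0). In ILC1-like cells these were 21 of 349 (6.02%, 3.76 to 9.05) and 22 of 186 (11.8%, 7.56 to 17.4). The NK and ILC1-like intervals overlap in the Mfap2-/- library. Thinned, the NK shares were 10.3% (4.24 to 20.1) and 11.4% (3.2 to 26.7). The thinned ILC1-like shares were 3.50% (1.82 to 6.03) and 3.26% (1.21 to 6.96), and these intervals overlap those of the NK cells in both libraries. In CD8 T cells the shares were 14.4% and 11.8%, and 8.44% and 3.59% thinned.

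Between genotypes, 0 of 10 countable cell cycle genes were higher and 4 lower (Top2a, Birc5, Tubb5 and Pclaf), with a median of -0.38. The median was 0.11 over the 3 genes still countable with cells thinned to 2000 UMIs, and 0.05 with no limit on the C1q genes. Tubb5, a beta tubulin, stood at 499 CPM (439 to 564) and 220 CPM (168 to 284), a log2 ratio of -1.16, and Mki67 at 120 and 176 CPM (0.56). These UMIs came from few cells, with 71.6% and 97.1% of the Top2a UMIs in 5 cells of each library. Outside the cycling cells Tubb5 stood at 158 and 108 CPM. Cycling Mfap2+/+ cells held 2626 CPM of Gzma and the others 3486, and cycling Mfap2-/- cells 4324 and the others 3201.

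Interferon-stimulated genes differed from one another in NK cells. Of 27 measured genes 7 were countable, 3 were higher (Ifit2, Isg15 and Samhd1) and 0 lower, with a median of 0.40 that was -0.21 without the cycling cells. Ifit2, an RNA-binding antiviral protein, stood at 60.8 CPM (41.3 to 86.4) and 217 CPM (165 to 280), a log2 ratio of 1.81 (1.18 to 2.51). Its log2 ratio was 1.80 in ILC1-like, 1.68 in CD8 T and 1.68 in B cells. In NK cells 91.5% of the Mfap2-/- UMIs came from 5 cells.

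Ifit1 and Rsad2 had NK ratios below those of the other lymphocytes. Ifit1 stood at 161 CPM (128 to 200) and 173 CPM (127 to 230), a log2 ratio of 0.11 (-0.45 to 0.64), against 0.80 in ILC1-like, 1.44 in CD8 T and 1.26 in B cells. Rsad2 (viperin) stood at 139 and 151 CPM (0.13, -0.48 to 0.69), against 1.23, 0.85 and 1.08. The difference between cell types was not tested, and it does not extend to Isg15 (0.62 in NK, -0.28 in ILC1-like cells).

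Of 12 countable heat shock genes 7 were higher and 0 lower in Mfap2-/- NK cells, with a median of 0.61. Hspa1a, an inducible HSP70, stood at 620 CPM (554 to 693) and 1271 CPM (1141 to 1412), a log2 ratio of 1.03, and at 1.01 in ILC1-like, 0.70 in CD8 T and 1.34 in B cells. Of 19 immediate early genes, which respond to tissue dissociation, 2 were higher (Atf3 and Nr4a3) and 2 lower (Dusp2 and Ier3), with a median of 0.10. Fos stood at 2897 and 4033 CPM (0.48). The part of the heat shock difference in the other results was not tested.

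Of 9 countable glycolysis genes 1 was higher (Pfkp, 116 and 261 CPM, 1.17, 0.65 to 1.69) and 1 lower (Gpi1, 147 and 80.8 CPM, -0.82), with a median of -0.22. Pfkp, the platelet-type phosphofructokinase, was past 1.5-fold in all 13 alternative settings, and its log2 ratio was 0.78 in ILC1-like cells. Gapdh stood at 809 and 595 CPM (-0.44), and its ratio was between -0.49 and -0.47 in the ILC1-like, CD8 T and B cells.

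Genes were also ranked by size alone. Each needed a mean of at least 100 CPM over both libraries. In the library where it was higher, its NK level had to reach that of all other barcodes. The highest Mfap2-/- ratios outside the lists then included Raet1e, Grk5, Add3, Rap1gds1 and Crybg1. In the Mfap2+/+ library Grk5, Add3 and Rap1gds1 lay below the other barcodes, at 98.1, 78.5 and 78.5 CPM against 98.7, 88.3 and 150. The filter admitted these genes by their Mfap2-/- level, so the ranking is a description only. Raet1e, a ligand of NKG2D, stood at 80.5 CPM and 276 CPM, a log2 ratio of 1.76 (1.21 to 2.36), in 20 of 68 and 21 of 36 cells. Its log2 ratio was -0.04 in ILC1-like and 0.07 in CD8 T cells. Its exons overlap those of H60b and Raet1d on the same strand, so its counts are uncertain. Grk5, a kinase of G protein-coupled receptors, stood at 98.1 and 312 CPM (1.66, 1.15 to 2.20), and Add3, a membrane skeleton adducin, at 78.5 and 246 CPM (1.63, 1.06 to 2.25).

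Other genes at that end rested on few cells. Arhgap31 (2.11) had 86.8% of its Mfap2-/- UMIs in 5 cells, Pak1 (1.49) 91.9% and Serpine2 (1.94) 100%. Without the 5 richest cells of each library Serpine2 had a log2 ratio of -0.01. At the lower end Mif, a cytokine, stood at 265 and 110 CPM (-1.23), and its ratios were -0.62, -0.59 and -0.52 in ILC1-like, CD8 T and B cells. Tomm20, a mitochondrial import receptor, stood at 251 and 103 CPM (-1.25, -1.93 to -0.69), and its ratios in those cells were -0.20, -0.17 and -0.40.

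Exons of Cd7, Il12rb2, Rora, Tox, Itga4, Pfkp, Lamp1, Cd247, Hspa1a, Ikzf2, Zeb2, Gata3, Xcl1, Sh2d1a, Emb, Crybg1, Lilrb4a and Gapdh share positions with an antisense partner. The same holds for the rule gene Eomes, for Cdca8, and for Camk4, Cables1 and Tmem176b of the comparison with ILC1-like cells. Whether reads were counted by strand is not given in the sources used here, so these levels may include reads of the partner. Cd247 and Gata3 also overlap a gene on their own strand, and Gm37240 of the comparison with ILC1-like cells overlaps Arfip1, Fam160a1 and Glt28d2 on its own.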

How the data were processed

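Liver non-parenchymal cells of 1 Mfap2+/+ and 1 Mfap2-/- library, both after 8 weeks of CCl4, were sequenced with a 3' droplet kit, per the labels' protocols. The authors deposited raw counts of UMIs per gene and barcode, and per the file headers the matrices came from Cell Ranger 7.0.1. The submitters' processing notes name Cell Ranger 3.1.0, Seurat and mm10, so the version is given differently by the sources. The treatment of intronic reads and strand is not given in the sources used here. The lowest total was 500 UMIs in both libraries.

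The members and the 17 gene lists were chosen with earlier results of these data known. For each class of cells the UMIs of a gene were added up and divided by the class total, per 1000000 (CPM). Log2 ratios add 1 count to each sum. Intervals are exact (Poisson, Clopper-Pearson, conditional binomial for ratios), cover counting error only and come from numpy 2.4.6 and scipy 1.17.1. A ratio was counted past 1.5-fold for genes with at least 50 UMIs over both NK sums, and genes of the rule were left out of list counts. Named genes were the list genes, the 10 highest and 10 lowest Mfap2-/- ratios (mean of at least 100 CPM, NK level at or above that of other barcodes in the higher library), the 10 farthest each way from ILC1-like cells by the smaller of the 2 ratios, and the 10 highest over all other barcodes. CD8 T cells had at least 2 CD3 UMIs, a Cd8a or Cd8b1 UMI and 0 over Cd4 and the receptors, and B cells at least 3 UMIs over Cd79a, Cd79b and Ms4a1 and 0 over CD3 and the receptors. Thinning drew 2000 UMIs per cell, leaving out shallower cells: 0 Mfap2+/+ and 1 Mfap2-/- NK cell, and 2327 and 1689 of all kept barcodes. Scrublet (scanpy 1.11.5) set doublet scores, and the automatic threshold marked 7 Mfap2+/+ barcodes (0.0616%) and so did not work there. The highest scores were therefore removed at 0.8% per 1000 barcodes in an alternative. Of 32285 gene identifiers 99.6% occur in GENCODE M21 on GRCm38, which gave positions and overlaps. Mx1 of the interferon list was not analysed here, and some genes of the lists and rankings are not reported by name. The interval step was tested on simulated Poisson sums only. Those sums hold no clustering of UMIs in few cells, so the test cannot show how the intervals hold for clustered genes.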

Additional observations from a re-analysis of the deposited data

Results flagged for a closer look

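Barcodes that met both positive criteria of the rule but carried at least 6 UMIs over Cd3d, Cd3e and Cd3g lie outside the comparisons above. They numbered 21 in the Mfap2+/+ and 59 in the Mfap2-/- library, against 68 and 36 NK cells. They were noted because the order of their numbers between the libraries is opposite to that of the NK cells. What these barcodes are was not tested.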

How the results depend on the processing

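No paired analysis was possible because each genotype is 1 library. The ratio of NK shares stayed below 0 in all 10 alternatives, from -1.34 with cells thinned before gating to -0.77 with no limit on the C1q genes. None of these alternatives dropped all exclusions of the rule together. Against 408 higher and 209 lower genes, the counts were 10 and 34 with C1q UMIs of 0 (4 and 2 cells), 103 and 70 with NK cells thinned to 2000 UMIs, 4137 and 2111 among genes with at least 1 UMI, 79 and 40 with at least 200 UMIs, and 855 and 557 with no C1q limit. The number of genes tested differs between these settings. The no-limit setting, a CD3 limit of at most 1, members with an Eomes UMI and the set without cycling members were chosen after seeing the data. Direction turned for Ikzf2 with at least 2 UMIs over Eomes, Klra8 and Klra4 (-1.01) and without its 5 richest cells (-0.04), for Serpine2 without its 5 richest cells (-0.01), and for Hspa1b with C1q UMIs of 0 (-1.42). It also turned for Tox (0.01) and Top2a (0.42) with no C1q limit, and for Isg15 without cycling members (-0.04), and the cause was not tested. The medians of 8 of 16 lists took values on both sides of 0, among them interferon-stimulated genes (-0.21 to 0.98), cell cycle (-0.54 to 0.11), mature stage (-0.04 to 0.72) and immature stage (-0.51 to 0.16). Of 57 named genes past 1.5-fold, 21 were past it in every alternative run for them and 51 had 1 direction. Among these alternatives the minimums of 1 and 200 UMIs leave a gene's own ratio unchanged, so they could not fail for single genes. With 36 Mfap2-/- cells, a gene of 50 UMIs can rest on a few cells, and 1 library per genotype leaves the spread between animals unmeasured.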
